A study of Mus musculus with 4 samples.

Results

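The integrin and laminin subunit genes were examined in sorted dermal papilla cells of mice with a conditional knockout of Sox2 and of heterozygous mice. Members were the genes whose symbol is Itga or Itgb with a number or letter, or Lama, Lamb or Lamc with a number, taken from probe sets that name that gene alone. Of 19938 genes so measured, 37 were members, comprising 18 integrin alpha genes, 9 integrin beta genes and 10 laminin chain genes. They rested on 38 probe sets, Itgad having 2 and every other member 1. The dermal papilla is a cluster of mesenchymal cells enclosed by the lower end of the hair follicle, and it signals to the hair matrix above it. Cells positive for a Sox2-driven green fluorescent protein (Sox2GFP) and for integrin alpha 9 were sorted from skin at postnatal day 5. The groups were Sox2 cKO, a conditional knockout (cKO) of the transcription factor gene Sox2, and Sox2 Het, heterozygous for Sox2 (Het), with 2 arrays each labelled as biological replicates 1 and 2. Both groups carry the Sox2GFP reporter by which they were sorted. The strain, the driver of the knockout, the exact alleles and any pooling of animals are not stated in the labels. How far the spread between arrays covers that between animals is therefore not known.

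Integrins are paired transmembrane receptors of an alpha and a beta subunit that hold cells to the extracellular matrix and signal in both directions across the membrane. Laminins are cross-shaped trimers of an alpha, a beta and a gamma chain that polymerise into the sheet of basement membranes, where several integrins bind them. In the hair follicle a basement membrane separates the papilla from the surrounding matrix epithelium, and laminins and integrins on either side of it are known to take part in follicle growth. Itga9 encodes the surface marker of the sort, so its level is bounded by the gate and is no finding between the groups.

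Upstream sequences are shown for members on which the values below turn: Itga1 and Lamb1, lower in both cKO arrays, Itga8, higher in both, and Itga9, the sorting marker. Each is the 250 bases before the RefSeq transcription start in build GRCm38.p6, written 5′ to 3′ on the gene's strand. Capitals mark the core letters bound by SOX factors, ACAAT or its reverse complement ATTGT, and the GC box, GGGCGG or CCGCCC. An upstream sequence was available here for 24 of the 37 members, 27 sequences in all, and Itga6 and Lamc1 were not among the 24.
Itga1, chr13:115101965-115102214, minus strand: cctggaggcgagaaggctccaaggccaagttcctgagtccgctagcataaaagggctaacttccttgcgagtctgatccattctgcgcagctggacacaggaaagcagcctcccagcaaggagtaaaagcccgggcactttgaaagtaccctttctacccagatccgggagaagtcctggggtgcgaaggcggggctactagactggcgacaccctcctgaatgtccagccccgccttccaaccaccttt
Lamb1, chr12:31265043-31265292, plus strand: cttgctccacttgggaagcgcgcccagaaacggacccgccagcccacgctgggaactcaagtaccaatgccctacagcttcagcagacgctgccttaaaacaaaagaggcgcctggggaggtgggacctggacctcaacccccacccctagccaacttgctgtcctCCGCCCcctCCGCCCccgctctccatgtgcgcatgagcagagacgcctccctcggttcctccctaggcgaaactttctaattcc
Itga8, chr2:12301945-12302194, minus strand: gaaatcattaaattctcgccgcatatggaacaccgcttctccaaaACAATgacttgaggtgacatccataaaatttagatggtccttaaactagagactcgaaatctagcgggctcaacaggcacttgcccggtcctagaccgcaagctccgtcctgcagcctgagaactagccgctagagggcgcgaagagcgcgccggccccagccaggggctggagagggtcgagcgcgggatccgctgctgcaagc
Itga9, chr9:118711442-118711691, plus strand: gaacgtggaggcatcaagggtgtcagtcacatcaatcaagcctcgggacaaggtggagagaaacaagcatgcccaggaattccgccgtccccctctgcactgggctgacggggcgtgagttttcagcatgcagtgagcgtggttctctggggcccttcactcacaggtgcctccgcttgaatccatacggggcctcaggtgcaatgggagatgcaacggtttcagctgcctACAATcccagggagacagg

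The SOX core was found in 5 of the 27 upstream sequences of members, or 18.5%, against 27.7% of all 32851 upstream sequences of that length. The GC box was in 9 of 27, or 33.3%, against 32.7% of all, and the TATA box, TATAAA or TTTATA, in 0 of 27 against 12.4% of all. Both strands were searched, and no 2 of these motifs overlapped in the sequences shown. Of the genes printed, Itga8 and Itga9 held 1 SOX core each, Lamb1 held 2 GC boxes and Itga1 held neither. These are letter matches in a short window and show no binding.

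In the deposited table each probe set's median over the arrays is 0, so a value is a log2 distance from that median, and no expression level or detection can be read. The middle values of a gene therefore mirror each other in sign. Sox2 itself, with 1 probe set, stood at -0.87 and -0.94 in the cKO arrays and at 0.96 and 0.87 in the Het arrays. Where that probe set lies relative to the deletion is not known here. Sex-linked genes separated the groups: Xist, a noncoding RNA of X inactivation, stood at 0.85 and 1.23 in cKO replicates 1 and 2 and at -4.08 and -0.85 in Het replicates 1 and 2, a difference of 3.51 ± 1.23 (SE). The Y-linked gene Eif2s3y stood at -0.87 and -0.79 in cKO and at 1.18 and 0.79 in Het, a difference of -1.81 ± 0.16 (SE). What these genes track and the genotype cannot be told apart with these arrays, here or in any difference below. Of the 37 members 0 lie on the X or Y chromosome. Het replicate 1, the lowest array for Xist, is also left out where a value rests on it. Leaving it out does not remove the separation, as Het replicate 2 also lay below both cKO arrays for Xist and above them for Eif2s3y. The arrays were level, with medians over all probe sets from -0.00366 to 0.0043.

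Most integrin and laminin genes differed little between the groups, and a few differed more than most genes on the array. In cKO arrays Itga1, a collagen-binding integrin gene, Itga6, a laminin-binding integrin gene, and Lamc1 and Lamb1, the laminin gamma and beta chain genes found in most laminin trimers, stood lower, with differences from -0.63 to -0.27 on the log2 scale. Itga8, whose product binds nephronectin and other ligands, stood higher by 0.38. None of these passed the test across all genes (limma, a moderated linear model, with Benjamini-Hochberg adjustment at 0.05). Of the 37 members 0 passed, against 0% of all genes, with 0.345 the smallest adjusted p of any gene. Before adjustment 3 members, Itga1, Itga6 and Itgal, or 8.11%, had a p under 0.05, against 5.28% of all genes. Itga1 and Itga6 were the 2 on the lower side (5.41%, against 3.41% of all genes) and Itgal the 1 on the higher side (2.7%, against 1.87%). In bulk sorted cells, fewer cells of a type and less RNA per cell cannot be told apart.

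The groups did not overlap in 14 members, or 37.8%, against 33.5% of all genes, with 8 lower in cKO (21.6%, against 15.6% of all genes) and 6 higher (16.2%, against 17.8%). Adding a difference of at least 1.5-fold left Itga1 alone, 2.7% of members, against 0.647% of all genes. A difference below 0 was found in 13 of 37 members, 35.1%, against 47.7% of all genes. The median difference was 0.0085 over the integrin genes and -0.0055 over the laminin genes, against 0.0034 over all genes. In size, regardless of sign, the median was 0.042 for integrins and 0.084 for laminins, against 0.047 for all genes. Differences of 0.25 or more were seen in 5 members, 13.5%, against 7.49% of all genes, while 26 of 37 lay under 0.1 in size (70.3%, against 73.4% of all genes).

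**Figure D1:**
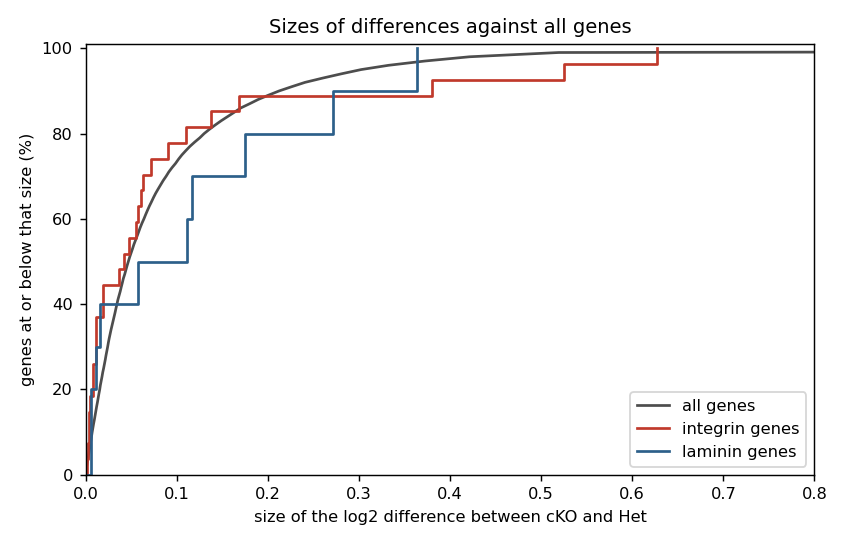
Share of genes (vertical axis, percent) whose log2 difference between cKO and Het is at or below a given size (horizontal axis), for the 27 integrin genes, the 10 laminin genes and all 19938 genes, whose curve goes on beyond the right edge. The integrin curve follows that of all genes up to about the size of Itgal and then holds 3 larger differences, those of Itga8, Itga6 and Itga1.

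Among the laminin-binding integrins, Itga6 encodes the alpha subunit that pairs with the products of Itgb1 and Itgb4. Itga6 stood at -0.58 and -0.15 in cKO replicates 1 and 2, and at 0.15 and 0.18 in Het replicates 1 and 2. The Het arrays lay close together, whereas cKO replicate 1 lay far below cKO replicate 2, and the groups did not overlap. The mean was -0.36 ± 0.30 in cKO and 0.16 ± 0.02 in Het (SD, n = 2 arrays each). The difference, cKO minus Het, was -0.52 ± 0.17 (SE), 1.44-fold lower, and did not pass (limma adjusted p = 0.936). Its size exceeded that of 99% of all genes, and it shrank to -0.31 without cKO replicate 1.

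Itgb4, the beta subunit of hemidesmosomes, which anchor epithelial cells to the basement membrane, stood at -0.04 and -0.01 in cKO and at 0.01 and 0.06 in Het. The groups did not overlap, and the difference of -0.06 ± 0.04 (SE) did not pass (limma adjusted p = 0.986). The remaining genes of the group, Itga3 and Itga7, alpha subunits of laminin receptors best known from epithelia and from muscle, differed by 0.0040 ± 0.05 and 0.04 ± 0.05 with overlapping groups. Of the 4 laminin-binding subunit genes, Itga6 was thus the 1 with a difference above 0.1 in size, and the intervals of the other 3 ran from -0.18 to 0.20.

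The collagen-binding alpha subunits all pair with the Itgb1 product. Itga1, whose product prefers basement membrane collagen, stood at -0.41 and -0.22 in cKO replicates 1 and 2 and at 0.41 and 0.22 in Het replicates 1 and 2. Every cKO value lay below every Het value, and each of the 4 pairs of a cKO with a Het array differed by 0.44 to 0.82. The mean was -0.31 ± 0.14 in cKO and 0.31 ± 0.13 in Het (SD, n = 2 arrays each). The difference was -0.63 ± 0.11 (SE), 1.54-fold lower, with a 95% interval from -0.94 to -0.31, and did not pass over all genes (limma adjusted p = 0.897). It was the largest in size among the 37 members and exceeded that of 99.4% of all genes, and it lay between -0.72 and -0.53 with each array left out in turn.

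Itga2 lies next to Itga1 on the chromosome, with 0 other protein-coding genes starting between them in RefSeq, and encodes another collagen receptor. It differed by -0.04 ± 0.04 (SE), standing at -0.03 and -0.0048 in cKO and at 0.0048 and 0.05 in Het. The fibrillar collagen receptor gene Itga11 differed by 0.06 ± 0.07 with overlapping groups. Itga10, best known from cartilage, differed by 0.11 ± 0.07 and was higher in both cKO arrays. The 4 collagen-binding genes were thus divided, 2 lower and 2 higher, and 0 of them passed (limma).

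The integrins that recognise the arginine-glycine-aspartate tripeptide (RGD) bind fibronectin, vitronectin, nephronectin and latent TGF-beta. Itga8, known from mesenchyme beneath epithelia, stood at 0.04 and 0.26 in cKO replicates 1 and 2 and at -0.04 and -0.42 in Het replicates 1 and 2. The cKO arrays were the higher ones without overlap, although cKO replicate 1 and Het replicate 1 were only 0.07 apart and Het replicate 2 was far below the rest. The difference was 0.38 ± 0.17 (SE), 1.3-fold higher, with a 95% interval from -0.13 to 0.89 (limma adjusted p = 0.958). It was 0.19 without Het replicate 2 and 0.57 without Het replicate 1.

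Itgav, the alpha subunit shared by many RGD receptors, stood at 0.22 and -0.18 in cKO replicates 1 and 2 and at 0.04 and -0.04 in Het. The cKO arrays lay on either side of the Het arrays, so the groups overlapped. Its difference was 0.02 ± 0.16 (SE), with a 95% interval from -0.45 to 0.49 that leaves room for a sizeable difference either way. The fibronectin receptor gene Itga5 differed by 0.06 ± 0.08 and Itgb5, a partner of Itgav, by 0.0047 ± 0.15, with overlapping groups in both. Itgb8, whose product takes part in TGF-beta activation, differed by 0.07 ± 0.04, and Itga2b, the platelet subunit, by 0.06 ± 0.04, each higher in both cKO arrays. Itgb3 and Itgb6, another 2 partners of Itgav, differed by 0.0016 ± 0.07 and 0.0085 ± 0.04. All 8 RGD-binding genes had a difference above 0 with all arrays, as had 10420 of all 19938 genes. Their median was 0.04 against 0.0034 over all genes, and 0 of them passed (limma). Without cKO replicate 1 the sign turned in 4 of the 8, in Itgav to -0.18, in Itgb3 to -0.03, in Itga5 to -0.02 and in Itgb5 to -0.02. Itgb6 turned to -0.01 without Het replicate 1, so Itga8, Itgb8 and Itga2b alone kept their sign without every array.

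Itga9 stood at -0.21 and 0.06 in cKO replicates 1 and 2 and at 0.19 and -0.06 in Het replicates 1 and 2, with overlapping groups. The values of a gate marker thus spread over 0.40 between arrays sorted on its protein. The difference was -0.14 ± 0.14 (SE; limma adjusted p = 0.992), with a 95% interval from -0.56 to 0.28, and shrank to -0.0003 without cKO replicate 1 and to -0.01 without Het replicate 1. Itga4, the most closely related alpha subunit, which binds VCAM and fibronectin, differed by 0.01 ± 0.04. Itgb1, the beta subunit of most of these receptors, stood at 0.14 and -0.15 in cKO and at 0.07 and -0.07 in Het. Replicate 1 was the higher array in each group, and the groups overlapped. Its difference was -0.0041 ± 0.12 (SE; limma adjusted p = 1), with a 95% interval from -0.37 to 0.36.

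Leukocyte integrins form a group of their own and are not typical of mesenchyme. Itgal, the alpha subunit of the T cell adhesion receptor LFA, stood at 0.06 and 0.12 in cKO and at -0.09 and -0.06 in Het. The arrays of each group lay within 0.06 of each other and the groups did not overlap. The difference was 0.17 ± 0.04 (SE), 1.12-fold higher, and did not pass (limma adjusted p = 0.934). Its beta partner gene Itgb2 differed by 0.09 ± 0.04, also higher in both cKO arrays.

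The other 6 leukocyte genes ranged from -0.01 to 0.05. Of these, Itgam, Itgax and Itgad, myeloid alpha subunits, lie next to each other on the chromosome and differed by 0.0082, 0.02 and -0.01. Itgae and Itgb7, which form a receptor of lymphocytes for E-cadherin, differed by -0.01 and 0.05, and Itgb2l, a relative of Itgb2, by 0.0031. The 12 immune cell markers, Ptprc and Tyrobp among them, had medians of 0.0016 and -0.0040 in the cKO arrays and of 0.0011 and 0.0008 in the Het arrays, and 0 of the 12 passed (limma; 0 also at an unadjusted p under 0.05). Ptprc differed by 0.05 ± 0.03 and Tyrobp by -0.07 ± 0.05.

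**Figure D2:**
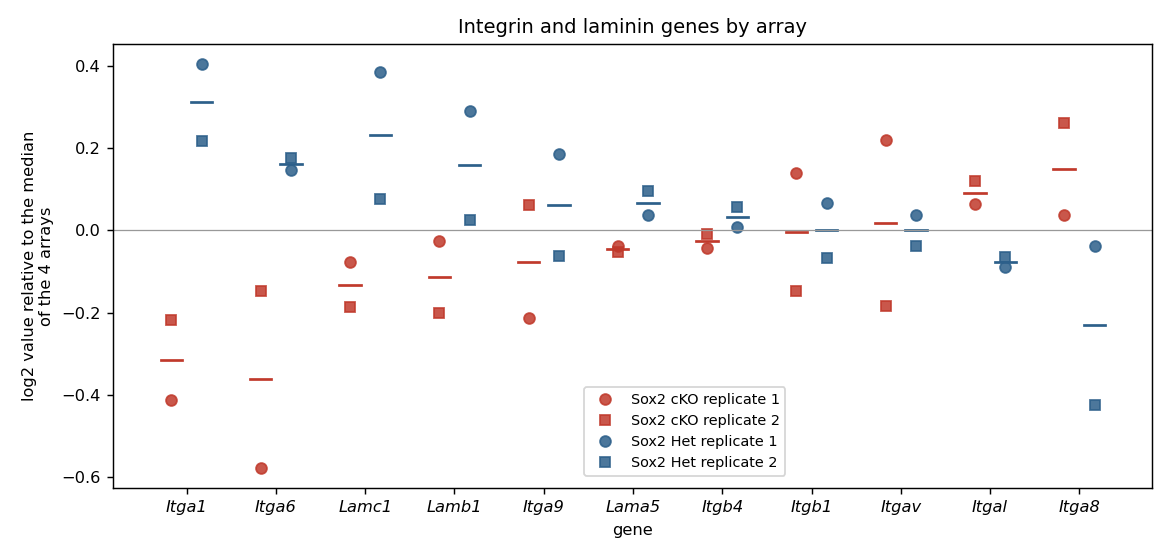
Log2 value of 11 member genes on each array relative to the median of the 4 arrays (vertical axis), with cKO in red to the left of Het in blue for each gene, circles for replicate 1, squares for replicate 2 and a bar at each group mean. In Itga1 the 4 arrays fall into distant pairs, at -0.41 and -0.22 in cKO and at 0.41 and 0.22 in Het, while in Itgb1 and Itgav the groups overlap.

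Of the laminin chains, Lamc1 encodes the gamma chain of most basement membrane laminins. It stood at -0.08 and -0.19 in cKO replicates 1 and 2 and at 0.39 and 0.08 in Het replicates 1 and 2. The groups did not overlap, and Het replicate 1 was well above the other 3 arrays. The mean was -0.13 ± 0.08 in cKO and 0.23 ± 0.22 in Het (SD, n = 2 arrays each). The difference was -0.36 ± 0.13 (SE), 1.29-fold lower, with a 95% interval from -0.74 to 0.01 (limma adjusted p = 0.937). Without Het replicate 1 it was -0.21.

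Lamb1, the beta chain gene whose product joins the Lamc1 product in several trimers, showed the same order of arrays. It stood at -0.03 and -0.20 in cKO replicates 1 and 2 and at 0.29 and 0.03 in Het replicates 1 and 2. The groups did not overlap, but cKO replicate 1 and Het replicate 2 were only 0.05 apart. The difference was -0.27 ± 0.12 (SE), 1.21-fold lower, with a 95% interval from -0.64 to 0.09 (limma adjusted p = 0.958). Without Het replicate 1 it was -0.14. The other beta and gamma chains did not separate the groups: Lamb2, the beta chain of muscle and nerve basement membranes, differed by -0.12 ± 0.20, Lamb3, of the epithelial laminin, by 0.0055 ± 0.07, and Lamc3 by 0.06 ± 0.09. Lamb2 was at -0.36 in the first cKO replicate and at 0.13 in the other, and its difference turned to 0.13 without cKO replicate 1.

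Lama5, the alpha chain of the main laminin of skin and hair follicle basement membranes, was the 1 alpha chain gene whose groups did not overlap. It stood at -0.04 and -0.05 in cKO and at 0.04 and 0.10 in Het. The difference was small next to those of Lamc1 and Lamb1, at -0.11 ± 0.04 (SE; limma adjusted p = 0.937), and lay between -0.14 and -0.08 with each array left out in turn. Lama4, the alpha chain of vessels and mesenchyme, differed by 0.0058 ± 0.09 and Lama2, of muscle and nerve, by 0.18 ± 0.19. Lama2 was divided within both groups, at -0.09 and 0.25 in cKO and at 0.09 and -0.28 in Het. Lama1, an early embryonic chain, and Lama3, of the epithelial laminin, differed by 0.01 ± 0.07 and -0.02 ± 0.06 with overlapping groups. Set side by side for a trimer of Lama5, Lamb1 and Lamc1 products, the differences were -0.11, -0.27 and -0.36. These are the 3 laminin genes of 10 (30%) whose groups did not overlap, against 33.5% of all genes. For a trimer with the Lama4 or Lama2 product in place of Lama5, the alpha chain difference was 0.0058 or 0.18 instead. Of the 10 laminin genes 5 were lower and 5 higher, and 0 passed (limma; 0 also at an unadjusted p under 0.05).

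**Figure D3:**
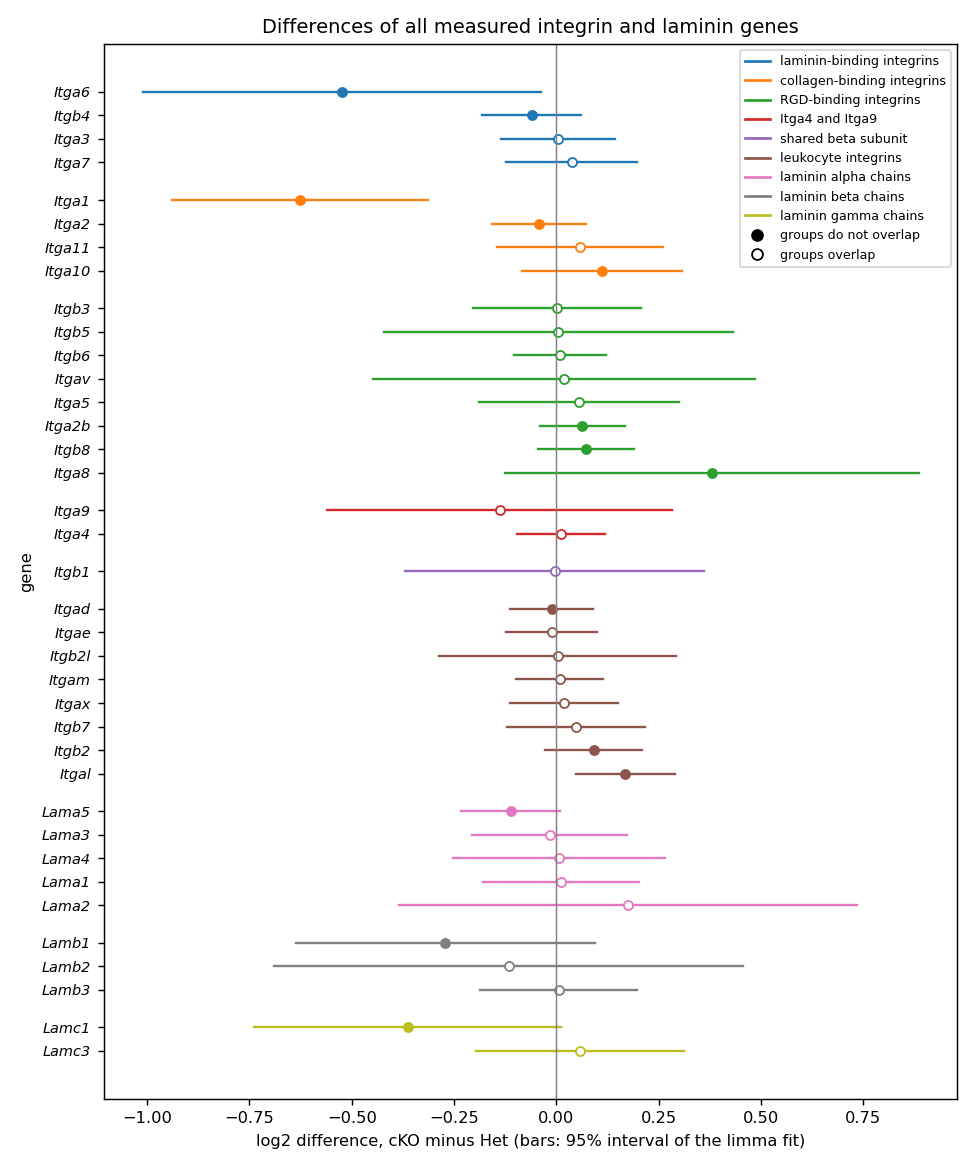
Log2 difference, cKO minus Het, of the 37 members (horizontal axis), grouped by role, with bars for the 95% interval of the limma fit and filled points where the groups do not overlap. Itga6, Itga1 and Itgal are the 3 genes whose interval leaves out 0, before adjustment for the number of genes tested.

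Leaving out each array in turn showed which differences rested on 1 array. Of the 37 members 15 kept their sign without every array, among them Itga1, Itga6, Itga8, Itga9, Itgal, Lama5, Lamb1 and Lamc1, and 22 lost it without at least 1 array. The differences of Lamb1 and Lamc1 were smallest in size without Het replicate 1, that of Itga6 without cKO replicate 1 and that of Itga8 without Het replicate 2. The range over the 4 arrays had a median of 0.15 over the members, against 0.14 over all genes. At its ends were Itga1, at 0.82, and Itgad, at 0.02.

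**Figure D4:**
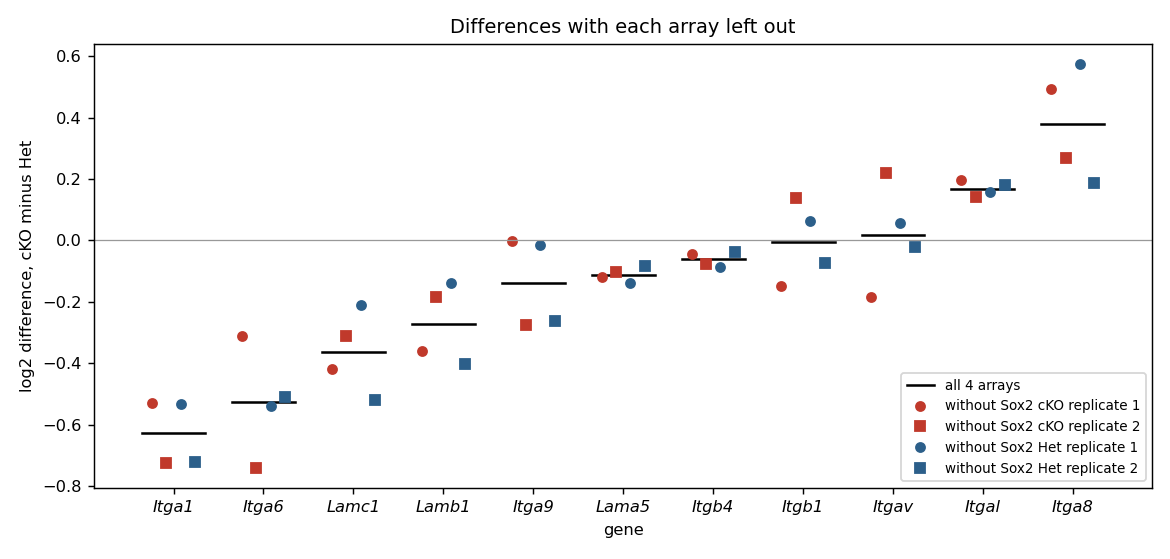
Log2 difference, cKO minus Het (vertical axis), of 11 member genes with all 4 arrays (black bar) and with each array left out (points; red for a cKO array left out, blue for a Het array). Itga1 stays between -0.72 and -0.53, whereas the points of Itgb1 and Itgav lie on either side of 0.

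Genes that work with integrins and laminins were described from 4 lists. Among other laminin receptors and tetraspanins, which are membrane proteins that bind integrins, 14 of 17 measured genes were lower and 3 higher in cKO, with a median of -0.10 against 0.0034 over all genes. The groups did not overlap in 6 of the 17 on the lower side and 0 on the higher side, against 15.6% and 17.8% of all genes. Rpsa, a ribosomal protein gene whose product has also been described as a laminin receptor, stood at -0.20 and -0.43 in cKO and at 0.27 and 0.20 in Het. The cKO arrays were the lower ones, and the difference was -0.55 ± 0.10 (SE), 1.46-fold lower (limma adjusted p = 0.897). Rpsa has many near-identical pseudogenes, which a probe set may not tell apart. Sgce, a sarcoglycan gene, differed by -0.39 ± 0.17, the tetraspanin genes Cd9 and Cd81 by -0.34 ± 0.22 and -0.32 ± 0.26, and Dag1, the dystroglycan gene, by -0.10 ± 0.13. The median of this list was -0.0072 and -0.06 in the cKO arrays and 0.13 and 0.0072 in Het replicates 1 and 2, so Het replicate 1 was the highest. In this list 0 genes passed, and 2 of 17 lay at an unadjusted p under 0.05, Rpsa and Sgcd, a sarcoglycan gene (limma), against 5.28% of all genes.

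Of the basement membrane partners 15 of 27 were lower and 12 higher, with a median of -0.02. Col15a1, a basement membrane collagen gene, stood at -0.07 and -0.92 in cKO and at 0.56 and 0.07 in Het, a difference of -0.82 ± 0.37 that was carried mostly by cKO replicate 2 and Het replicate 1. Hspg2, the perlecan gene, differed by -0.29 ± 0.09, Fbln1, the fibulin gene, by -0.38 ± 0.14, Sparc by -0.38 ± 0.21 and Frem2 by -0.33 ± 0.18. The nidogen genes Nid1 and Nid2, whose products link laminin to type IV collagen, differed by 0.13 ± 0.11 and -0.02 ± 0.08, and Col4a1, a chain of that collagen, by 0.04 ± 0.07. The lower genes of this list thus included perlecan, while nidogen and Col4a1 had overlapping groups. In this list 0 genes passed (limma), with Hspg2 the 1 of 27 at an unadjusted p under 0.05, against 5.28% of all genes.

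Among other integrin ligands 15 of 25 were lower and 10 higher, with a median of -0.05. Npnt, the nephronectin gene, which encodes a ligand of the Itga8 product, differed by -0.07 ± 0.05 with lower values in both cKO arrays. The fibronectin gene Fn1 differed by -0.20 ± 0.21 and Tnc, the gene of tenascin, a ligand of the Itga9 product, by -0.03 ± 0.04. Mfge8 and Vegfd, genes of secreted integrin ligands, had differences of -0.28 ± 0.09 and -0.21 ± 0.04. They were the 2 of 25 at an unadjusted p under 0.05 (limma), against 5.28% of all genes. Tgfbi differed by -0.32 ± 0.46, Icam1, a ligand of the Itgal product, by 0.27 ± 0.16 and Ccn1 by -0.23 ± 0.18. Of this list 0 genes passed (limma).

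Integrin adaptors and kinases were evenly divided, with 15 of 30 lower and 15 higher and a median of -0.0023. Tns3, a tensin gene whose product links integrin tails to actin, stood at 0.11 and 0.92 in cKO and at -0.11 and -0.31 in Het. The cKO arrays were the higher ones, mostly through cKO replicate 2, and the difference was 0.73 ± 0.32 (SE; limma adjusted p = 0.951). Zyx, the zyxin gene of focal adhesions, differed by -0.31 ± 0.10, and the kinase gene Ilk and its partner Parva by -0.36 ± 0.25 and -0.28 ± 0.28. Of this list 0 genes passed (limma). Zyx and the talin gene Tln2, at -0.14 ± 0.04, were the 2 of 30 at an unadjusted p under 0.05, against 5.28% of all genes.

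**Figure D5:**
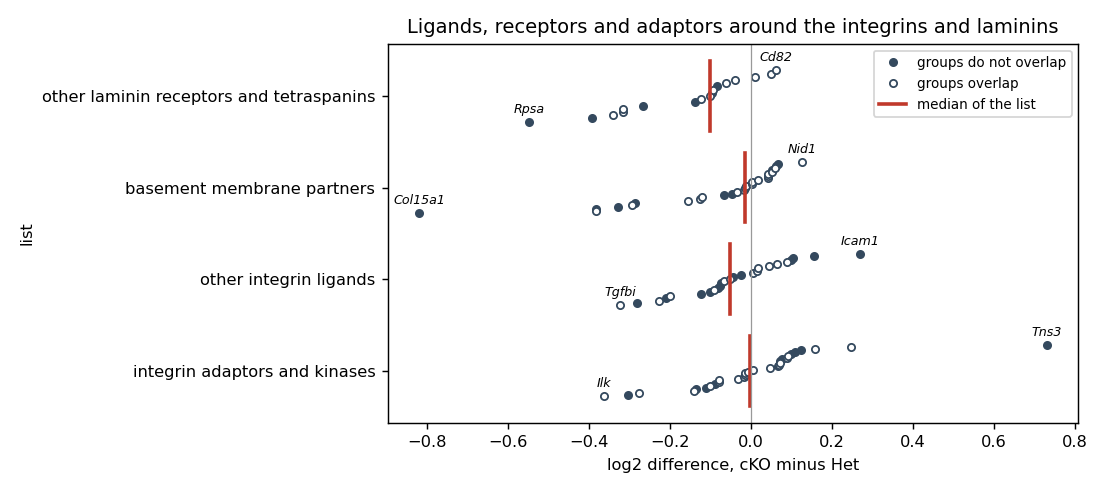
Log2 difference, cKO minus Het (horizontal axis), of the measured genes on 4 lists of integrin and laminin partners, with filled points where the groups do not overlap and a red line at the median of each list. The medians run from -0.10 for the other laminin receptors and tetraspanins to -0.0023 for the adaptors and kinases.

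Markers of other cells that also express these genes were set beside them. The 11 keratinocyte markers had medians of -0.05 and 0.0081 in cKO and of -0.10 and 0.39 in Het replicates 1 and 2. Of the 11, 10 were lower in cKO, 2 of them with groups that did not overlap, against 15.6% of all genes on that side. Itga6 and Itgb4, which basal keratinocytes also express, were lower in cKO. Other members known from epithelia, Itga3, Lamb3 and Lama3, differed by 0.0040, 0.0055 and -0.02 with overlapping groups. In Het replicates 1 and 2 Itga6 stood at 0.15 and 0.18 and Itgb4 at 0.01 and 0.06. The 8 melanocyte markers had medians of -0.04 and 0.04 in cKO and of -0.09 and 0.18 in Het replicates 1 and 2. Of these markers 6 were lower in cKO and 2 higher, 0 of them with groups that did not overlap, against 33.5% of all genes. The 8 dermal fibroblast markers had medians of -0.02 and -0.14 in cKO and of 0.09 and 0.39 in Het, and all 8 were lower in cKO, 4 with groups that did not overlap (15.6% of all genes did so on that side) and 2 at an unadjusted p under 0.05 (5.28% of all genes). Of the 8 members lower in cKO with groups that did not overlap, Itga1, Lamb1 and Lamc1 were higher in Het replicate 1 than in Het replicate 2. Itga2, Itga6, Itgad, Itgb4 and Lama5 were higher in Het replicate 2. The fibroblast, keratinocyte and melanocyte medians were higher there as well. Single fibroblast markers were divided, with Col1a2, Col3a1 and Pdgfra higher in Het replicate 1 and the others in Het replicate 2. The 8 smooth muscle and dermal sheath markers had medians within 0.04 of 0 on every array, as did the endothelial markers. Single markers could still move, with a median range over the arrays of 0.22 and 0.08 in these lists. Over all genes it was 0.14. Vessels are another source of Itga1 and Lama4. The 6 measured Schwann markers had medians of 0.0044 and -0.30 in cKO and of 0.22 and 0.11 in Het. Of these, 5 were lower in cKO and 1 higher, 3 of the lower ones with groups that did not overlap, against 15.6% of all genes. Egr2, at -1.35 ± 0.23, and Fabp7, at -0.82 ± 0.08, were the 2 of 6 at an unadjusted p under 0.05 (limma), against 5.28% of all genes. The platelet and skeletal muscle markers had medians within 0.05 of 0 on every array. All 3 measured platelet markers were higher in cKO, by 0.05 to 0.08. Their groups did not overlap, against 17.8% of all genes on that side. Because the values were centred, it cannot be read which of these markers were absent from the sort, and their part in the differences above was not tested. The 15 measured dermal papilla markers went both ways, with 7 higher and 8 lower in cKO and a median difference of -0.07, and 5 of them, Sox2 among these, had an unadjusted p under 0.05, against 5.28% of all genes. Beside Sox2 the largest differences were those of Vcan, at -0.77 ± 0.26, Wif1, at 0.75 ± 0.22, Rspo3, at -0.66 ± 0.13, and Lef1, at 0.51 ± 0.23.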

How the data were processed

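Per the labels' protocols, total RNA was amplified from whole transcripts and biotin-labelled. The authors used RMA, per the submitters' processing notes, and the deposited values are taken as log2, which RMA gives, although the table names no base. All 28853 probe sets have a median of 0 over the 4 arrays within rounding, a centring that removes levels and leaves differences. How it was done, the software version and the build are not stated. The number of arrays limits the precision.

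The platform annotation gave 21789 probe sets 1 gene, 1621 several genes and 5443 none listed. Symbols were checked against RefSeq (GRCm38.p6), which changed 0. Probe sets naming a gene alone were averaged; 3 that name Itgam with another gene were left out. The 19938 genes were fitted in R 4.3.3 with limma 3.58.1 (lmFit, eBayes, group as the only term, two-sided, 2 residual and 1.52 prior degrees of freedom), with Benjamini-Hochberg adjustment over all genes at 0.05. Intervals are 95% intervals of this fit, unadjusted. The fit was tested on simulated data. Figures were drawn with matplotlib 3.10.9. Members and lists were chosen with earlier results of these data known. Every member is described; per-array values are given for members at an unadjusted p under 0.05 with separate groups, those differing 1.5-fold, and Itga9, Itgb1, Itga6, Itgb4, Itga8, Itgav, Lama5, Lamb1 and Lamc1, and of each partner list the 4 largest differences and Npnt, Fn1, Tnc, Nid1, Nid2, Col4a1 and Dag1. Per-array values of Itga2, Lamb2 and Lama2 were added after their values were seen. So were the genes Hspg2, Sgcd, Vegfd, Tln2, Ptprc, Tyrobp, Egr2, Fabp7, Vcan, Wif1, Rspo3, Lef1, Col1a2, Col3a1, Pdgfra, Xist and Eif2s3y. The alternatives tried were each array's own median set to 0, a robust prior, an unmoderated statistic, the replicate number as a block, other summaries of probe sets, probe sets as the unit, and each array left out.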

Additional observations from a re-analysis of the deposited data

How the results depend on the processing

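With 2 arrays a group, no alternative changed the count of 0 genes and 0 members past the adjusted threshold (limma, probe sets included). In the main fit 3 members and 1053 genes had an unadjusted p under 0.05. The 66 values of the 11 members named by rule, under settings with all arrays, kept their sign and their side of the threshold. Array centring alone could move these differences, since each of the 11 has 1 probe set and the prior, statistic and block leave the difference itself unchanged. For the other settings the kept sign is thus no check. The labels share replicate numbers, which pair no animals or batches by any statement, and deviations of same-numbered arrays correlated at 0.30 over all genes. With the replicate number as a block, 5 members in place of 3 lay at an unadjusted p under 0.05, Lamb1 and Lamc1 being added, while the share over all genes moved to 8.15%, against 5.28%. The unmoderated statistic gave Itga1, Itga2b and Itgal, without Itga6. Itga1 was in the set under all 10 other settings; Itga6 left it without either Het array, and Itgal left it without either Het array or cKO replicate 2. Requiring a 1.5-fold difference left 1 of the 14 members with separate groups. With each array left out, that count ran from 23 to 28, where 62% to 71.1% of all genes separate, since a lone array need only lie outside the other pair; it is assumed to vary like the rest. The median difference then ran from -0.0060 to 0.029 for integrins and from -0.061 to 0.031 for laminins. Itgav lay between -0.18 and 0.22 and Itgb1 between -0.15 and 0.14, and in 4 of 44 such values the sign turned: Itgav at -0.18 and -0.02, Itgb1 at 0.06 and 0.14. Outside these 11 members it turned in others too, such as Lamb2 at 0.13 and Lama2 at -0.01; over all 37 members 22 lost their sign without at least 1 array.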
